A study of Mus musculus with 8 samples.

Results

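The miR-128-2 locus was 1 of 16 amplicons sequenced in a mouse experiment on silencing microRNA genes in the brain with CRISPR/Cas9. Its reads fill 16 of the 256 blocks deposited, 1 block for each of 2 read directions in each of 8 libraries, and came to 787989 reads. All blocks whose header names miR-128-2 were used, and each listed deletion, insertion and substitution was placed on the expected sequence printed in the block. C57BL/6 wild-type mice had received AAV vectors for CRISPR/Cas9 in the motor cortex, and tissue was taken after 4 weeks. Nuclei were sorted into a Cas9-positive and a Cas9-negative fraction for each of 4 constructs: guide Sa1, which the labels call inoperative, guide Sa2, directed at miR-128, guide Sa4, directed at miR-124, and a vector with no guide. Each of these 8 groups has 1 library, named here by construct and fraction, so every comparison is between the reads of 2 libraries and carries no replicate error. The age of the mice, the number of mice and nuclei behind a library, the serotype and promoter of the vectors and the Cas9 species are not given in the sources used here. The labels call the material neural cells, and amplicon reads of genomic DNA hold no expression marker with which to check this.

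A microRNA is cut from a hairpin in its primary transcript, first by Drosha and then by Dicer, and the mature strand is loaded into an Argonaute protein. It finds messenger RNAs chiefly by pairing through its seed, the bases from 2 to 8 of the mature strand, which then lowers their translation and stability. miR-128 is among the abundant microRNAs of neurons in the forebrain. It is made from a pair of hairpin genes with the same mature 3p strand, Mir128-1 and Mir128-2, and Mir128-2 lies inside Arpp21, which codes for a phosphoprotein of neurons.

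The expected sequence of the amplicon equalled the Mir128-2 hairpin in RefSeq letter for letter (assembly GRCm38.p6, chr9:112118636-112118711, minus strand, 76 bases, inside Arpp21). Positions start at base 1, the 5′ end of the hairpin. Mature miR-128-3p takes up bases 48 to 68 (chr9:112118644-112118664) and its seed bases 49 to 55 (chr9:112118657-112118663). The hairpin and the mature strand are shown because every result below turns on where an allele lies in them, with the seed in capitals; the mature strand is RefSeq's.
Mir128-2 hairpin: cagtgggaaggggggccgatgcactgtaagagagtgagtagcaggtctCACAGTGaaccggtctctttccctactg
miR-128-3p: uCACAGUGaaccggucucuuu

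The cut site was predicted between bases 49 and 50 of the hairpin, 3 bases before the hexamer GTGAAC, which puts it inside the seed, between mature bases 2 and 3. The position was chosen with the place of the indels known, since the guide sequence was not used here. The last base of this hexamer is C, whereas the hexamer taken at the miR-124 amplicons ends in T. A read counts as an indel read if an inserted or deleted base lies within 10 bases of that site. Shares carry 95% Wilson intervals, which cover counting error only because reads were not collapsed to molecules.

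In the Sa2 Cas9-positive library, 53243 of 63144 reads at miR-128-2 carried an indel, a share of 84.3% (95% Wilson interval 84.0 to 84.6%). Reads with no mutation at all numbered 2696, or 4.27%. Forward and reverse reads gave 82.6% and 86.2%. Among the libraries with other constructs, the Cas9-positive ones had 4 indel reads of 33698 with guide Sa1 (0.012%), 5 of 77436 with guide Sa4 (0.0065%) and 18 of 104478 with no guide (0.017%). The Cas9-negative libraries had 14 of 161060 with guide Sa1 (0.0087%), 1847 of 100118 with guide Sa2 (1.84%), 305 of 96117 with guide Sa4 (0.317%) and 9 of 151938 with no guide (0.0059%). Thus 3 libraries held over 100 indel reads and 5 held 4 to 18.

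**Figure D1:**
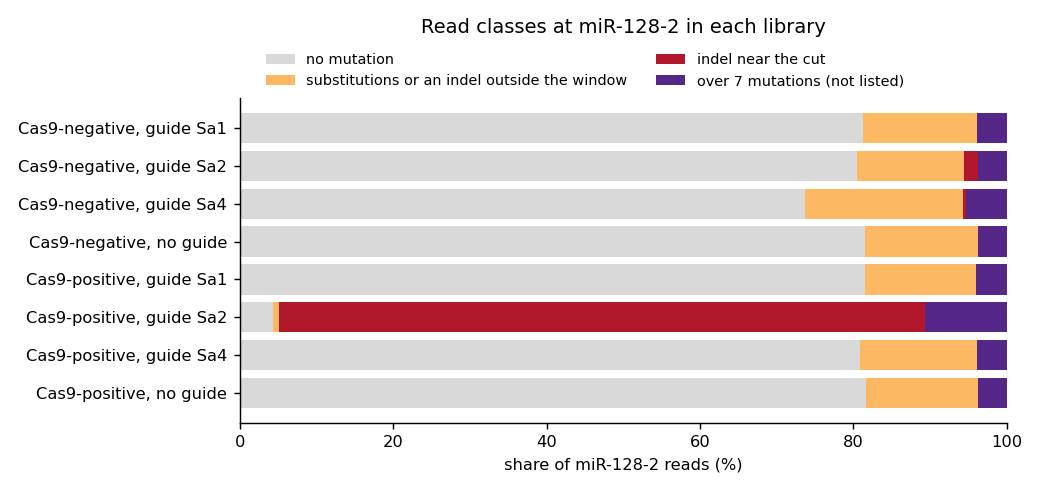
Share of miR-128-2 reads (%, horizontal axis) in 4 classes for each of the 8 libraries; the bars of a library add up to 100%. The Sa2 Cas9-positive library has an indel near the cut in 84.3% of reads, and the other 7 libraries have no mutation in 73.7% to 81.7%.

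Guide Sa2 stood 84.3 points above no guide in the Cas9-positive fraction (two-sided Fisher's exact test on reads, Benjamini-Hochberg adjusted p at the written lower limit of 1e-300). Over all amplicons, 6.82% of the 44 tests of this kind passed the threshold of an adjusted p under 0.05 and a difference of at least 0.1 points. Guides Sa1 and Sa4 differed from no guide by -0.0054 points (interval -0.018 to 0.014 points, Fisher's exact adjusted p 1) and -0.011 points (-0.021 to -4.58e-05 points, adjusted p 0.352). In the Cas9-negative fraction, where 6.67% of 45 tests passed, guide Sa2 was 1.84 points above no guide (adjusted p 1e-300) and guide Sa4 0.311 points above it (0.277 to 0.349 points, adjusted p 3.98e-110). Guide Sa1 differed there by 0.0028 points (-0.0036 to 0.0093 points, adjusted p 1). Between fractions of a construct, where 6.78% of 59 tests passed, the Cas9-positive library was 82.5 points higher with guide Sa2 and 0.311 points lower with guide Sa4 (adjusted p 5.47e-69). With no guide the fractions differed by 0.011 points (0.0030 to 0.022 points), with an unadjusted Fisher's exact p of 0.0095 and an adjusted p of 0.112.

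An allele is the expected sequence with the listed indels applied and substitutions ignored, so that entries that place the same deletion differently count as 1 allele. The Sa2 Cas9-positive library held 116 alleles, of which 42 had 1 read. The 11 alleles with at least 1% of its indel reads held 52324 reads, or 98.3% (98.2 to 98.4%), and 7 alleles were enough to reach 90%. The inverse Simpson index, the number of equally frequent alleles that would give the same evenness, was 8.04. An allele just outside the threshold, an insertion of A before base 50, had 324 reads (0.609%), and the lowest inside it had 749 (1.41%).

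The 11 alleles are shown in order of frequency over the stretch that holds the changes, bases 36 to 64 of the hairpin, after the unedited sequence. Capitals mark the seed bases that are left in an unbroken run up to mature base 8.
Unedited: gagtagcaggtctCACAGTGaaccggtct
Replacement of CAGGTCTC from base 42 by A: gagtagaACAGTGaaccggtct
Deletion of C at base 49: gagtagcaggtctACAGTGaaccggtct
Deletion of TCTCAC from base 46: gagtagcaggAGTGaaccggtct
Deletion of CTC from base 47: gagtagcaggtACAGTGaaccggtct
Deletion of CA from base 49: gagtagcaggtctCAGTGaaccggtct
Deletion of TC from base 46: gagtagcaggtCACAGTGaaccggtct
Deletion of CAGGTCT from base 42: gagtagCACAGTGaaccggtct
Insertion of T before base 50: gagtagcaggtctctACAGTGaaccggtct
Deletion of A at base 50: gagtagcaggtctcCAGTGaaccggtct
Replacement of ACAGTG from base 50 by T: gagtagcaggtctctaaccggtct
Deletion of C at base 51: gagtagcaggtctcaAGTGaaccggtct

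The most frequent allele replaced the 8 bases from base 42 by a single A, which gives the same sequence as the loss of base 42 and of bases 44 to 49 with the base between them kept. It had 9055 reads, 17.0% of indel reads (16.7 to 17.3%), and loses the first 2 mature bases. The single-base deletion of C at base 49, mature base 2, had 8213 reads (15.4%; 15.1 to 15.7%). The deletion of TCTCAC from base 46, which takes mature bases 1 to 4, had 8189 reads (15.4%; 15.1 to 15.7%). The intervals of these last alleles overlap almost fully, so their order is not set by the counts. The deletion of CTC from base 47 followed with 7104 reads (13.3%; 13.1 to 13.6%).

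The deletion of CA had 5364 reads (10.1%; 9.82 to 10.3%) and the deletion of TC from base 46 had 5270 (9.90%; 9.65 to 10.2%), with intervals that overlap again. The deletion of CAGGTCT from base 42 had 4932 reads (9.26%; 9.02 to 9.51%). A clear step separated these 7 alleles from the next, the insertion of T between the bases beside the cut, with 1459 reads (2.74%; 2.60 to 2.88%). The deletion of A at base 50, the replacement of ACAGTG by T and the deletion of C at base 51 had 1205 (2.26%), 784 (1.47%) and 749 reads (1.41%). The replacement of ACAGTG by T stands alone among the 11 in taking mature base 8.

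Read direction moved several of these shares beyond their Wilson intervals, so the intervals understate the spread between directions. The deletion of CTC held 14.3% of forward and 12.3% of reverse indel reads, and the deletion of TCTCAC 14.3% and 16.5%. The deletion of C at base 49 had 15.6% and 15.3%, so its order against the deletion of TCTCAC changed with direction. The replacement that heads the list had 16.7% and 17.3%. Each listed sequence carries the name of 1 representative read. All 445542 such names in the series are those of first reads, and 0 of them occur in both directions of a library at this locus.

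**Figure D2:**
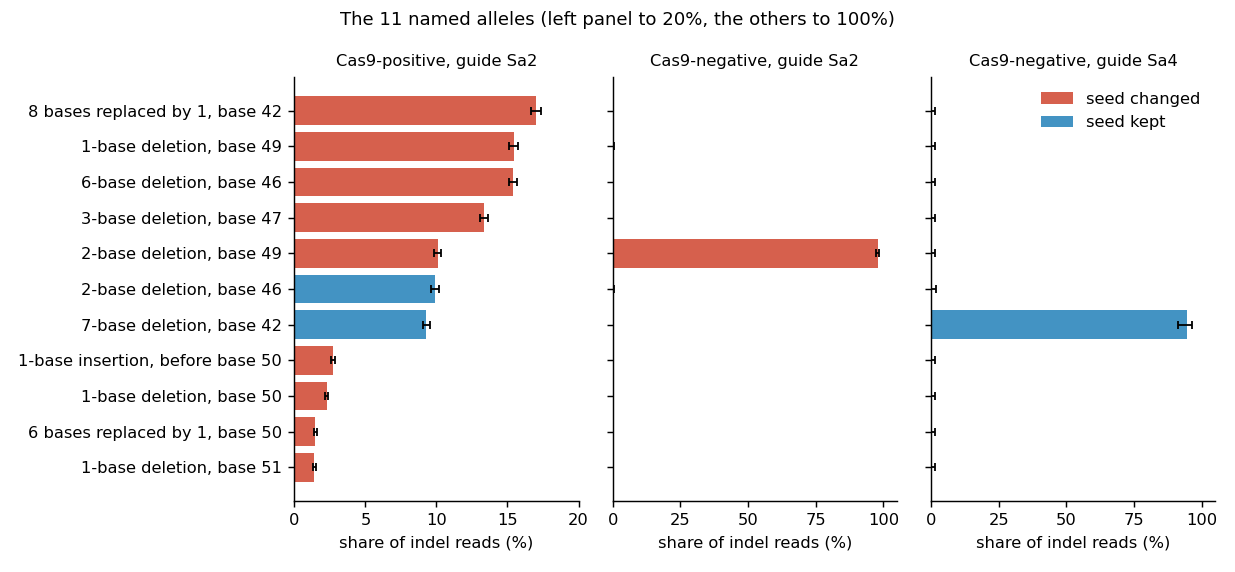
Share of indel reads (%, horizontal axes) of the 11 named alleles in the 3 libraries with over 100 indel reads, with 95% Wilson intervals as error bars; the left axis ends at 20% and the others just past 100%. Blue bars keep the seed and red bars change it. The Sa2 Cas9-positive library has 7 alleles between 9.26% and 17.0%, and each Cas9-negative library has 1 allele above 94%.

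By kind, 77.5% of the indel reads in the Sa2 Cas9-positive library were a single deletion (77.1 to 77.9%) and 3.38% an insertion (3.23 to 3.54%). The other 19.1% (18.8 to 19.5%) counted as a replacement, the class of all alleles that no single deletion or insertion gives. Reads with separate indels fall in that class too. By net size, a loss of 7 bases was the most frequent class, with 26.5% of indel reads. Losses of 2 bases (20.3%) and 1 base (19.2%) came next, then those of 6 bases (15.5%) and 3 bases (13.6%). The loss of 5 bases had 800 reads and the loss of 4 bases 12 reads, or 0.023%. The gain of 1 base made up 3.38%, and 0 reads gained 2 to 7 bases. The net loss of 7 bases was split between the leading replacement (9055 of 14098 reads) and the deletion of CAGGTCT (4932 reads). Among single deletions that remove a base beside the cut, the deletion of CTC held 99.7% of the 3-base reads and the deletion of TCTCAC 99.8% of the 6-base reads. The deletion of C at base 49 held 87.2% of the 1-base reads, and the deletion of CA 50.4% of the 2-base reads, with TC holding the others.

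The authors listed reads of this amplicon with up to 7 mutations, with 1 mutation for every base deleted, inserted or substituted. A deletion of 8 or more bases is therefore not listed, and the 7-base alleles have no mutation left for a read error. Reads whose indel used 1, 2, 3, 5 or 6 mutations carried a further substitution in 17.8%, 18.5%, 15.4%, 17.3% and 17.0% of cases. Those whose indel used 7 did so in 0 of 14098 reads. The replacement at the head of the list and the deletion of CAGGTCT both use 7, and each is made of 2 listed sequences, 1 per direction, while the deletion of C at base 49 is spread over 561. When entries with a substitution were left out, the shares of these 7-base alleles moved from 17.0% to 19.5% and from 9.26% to 10.6%.

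Most deleted bases lay on the side of the predicted cut toward the hairpin loop, before base 50. The cut was placed with the indels known, so the split by side depends on that choice and does not test it. Where a deletion can be written at several places, its leftmost and rightmost forms were both counted. All replaced bases count as lost, also the base of the leading replacement that can be read as kept. In the Sa2 Cas9-positive library, 86.5% of lost bases were before the cut in leftmost form and 81.8% in rightmost form. Reads that lost bases only before the cut made up 65.4% or 56.1% of indel reads, and those only after it 5.34% or 15.4%. Base 49, mature base 2, was the base most often lost, in 71.8% or 80.8% of indel reads. The first base after the cut was lost in 29.6% or 28.8%, and mature bases 6, 7 and 8 in at most 1.75% each. Base 41 and the bases before it were lost in at most 0.171%, although the limit of 7 mutations also bounds how far a single deletion across the cut can reach.

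**Figure D3:**
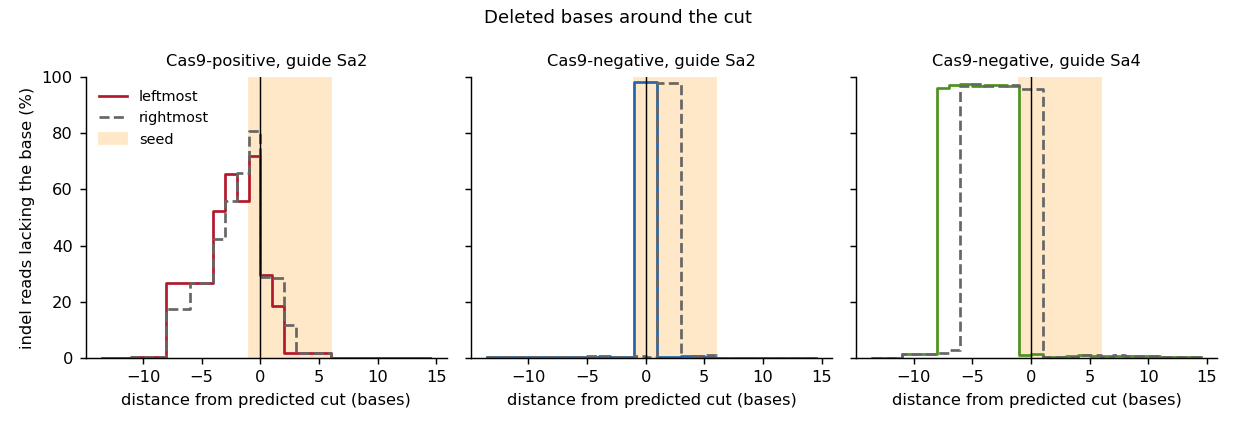
Share of indel reads (%, vertical axis) that lack each base, against its distance in bases from the predicted cut (horizontal axis, negative toward the loop), with each indel in its leftmost (solid) and rightmost (dashed) form; replaced bases count as lacking, and the shaded band is the seed. In the Sa2 Cas9-positive library the profile peaks at the last base before the predicted cut (71.8% and 80.8%) and drops to 29.6% and 28.8% after it. The cut was placed with the indels known.

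The seed was read from each allele's sequence, with substitutions in the reads ignored. It was changed in 42840 of 53243 indel reads of the Sa2 Cas9-positive library, or 80.5% (80.1 to 80.8%), and kept in 19.5% (19.2 to 19.9%). Of the 10403 reads with the seed kept, 10202 came from 2 alleles. The deletion of TC from base 46 can also be written as the loss of the first 2 mature bases, but its sequence holds the whole of miR-128-3p, with 2 bases fewer in front of it. The deletion of CAGGTCT from base 42 keeps the 7 seed bases and changes mature base 1. In all, 5326 of 53243 indel reads had an allele that holds the full mature sequence (95% interval 9.75 to 10.3%). A further 9.54% had an allele that keeps the seed but lacks another mature base.

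Among the alleles that changed the seed, most kept its end. Counted back from mature base 8, an unbroken run of 6 seed bases was left in 49.2% of indel reads (48.8 to 49.7%), of 5 in 12.6% and of 4 in 16.8%. Runs of 1 to 3 bases each made up 0.133% or less, and 1.53% had no such run. With the runs of all 7 seed bases (19.5%) included, 98.2% of indel reads had an allele with at least 4 seed bases next to an intact remainder of the mature strand. Substitutions are ignored in these shares. The run of 6 is the group of the leading replacement, the deletion of C at base 49, the deletion of CTC and the insertion of T: in each of them mature base 2 is the only seed base lost or displaced. The processing of edited hairpins was not measured, so these are statements about DNA sequence and not about mature strands present in the cells.

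Microhomology was taken as the number of bases by which a deletion can be moved without changing the resulting sequence, which equals the repeat at its borders. Of 41264 reads with a single deletion in the Sa2 Cas9-positive library, 15566 had microhomology of at least 2 bases, or 37.7% (37.3 to 38.2%). These were the deletions of CA, of TC and of CAGGTCT, each with exactly 2 bases. In 62.2% (61.7 to 62.7%) there was none, and 0 of 41264 reads had 3 bases or more. The hairpin allows few repeats here: of the 31 distinct alleles that a single deletion of 1 to 7 bases across or beside the cut can make, 4 have microhomology of 2 bases (12.9%) and the highest value is 2. Of these 31 alleles, 13 were seen (41.9%), with 40316 reads, and 38.6% of those reads had microhomology of 2 bases. The 4 alleles with microhomology of 2 bases are the 2 possible deletions of 2 bases and 2 of the 7 possible deletions of 7 bases. Microhomology is thus tied to deletion size at this site. Only 2 of the 31 keep the seed (6.45%), and these 2 held 25.3% of the reads. None of the 4 possible deletions of 4 bases was seen, and 1 of the 6 of 5 bases was seen, with 2 reads.

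The Sa2 Cas9-negative library held a much narrower set. Of its 1847 indel reads, 1808 (97.9%) were the deletion of CA from base 49, an allele that 4 others exceed in the Cas9-positive library, where it has 10.1%. The other 39 reads fell on 14 alleles: the deletion of GT from base 53 had 15 reads, the deletion of TC from base 46 had 5, the deletion of G from base 44 had 3, and the rest had at most 2 each. The leading replacement, the deletion of TCTCAC, the deletion of CTC and the deletion of CAGGTCT each had 0 reads of 100118, where 3 reads, the floor used for a count of 0, would make 0.0030% of all reads. The inverse Simpson index was 1.04. The deletion of CA was listed as 186 sequences here, 949 forward and 859 reverse reads, and 18.5% of its reads carried a further substitution (16.8 to 20.4%), against 17.3% (16.3 to 18.4%) in the Cas9-positive library.

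In the Sa4 Cas9-negative library another allele led. The deletion of CAGGTCT from base 42 made up 288 of 305 indel reads (94.4%), with 133 forward and 155 reverse reads, and the inverse Simpson index was 1.12. These values hold for indels within 10 bases of the cut: with indels anywhere in the amplicon, the allele had 65.3% of indel reads, and the deletion of CA had 89.7% in the Sa2 Cas9-negative library. In the Sa2 Cas9-positive library the deletion of CAGGTCT has 4932 reads, and in each of the other 6 libraries it has 0. Behind it came a replacement of TAGCAGGTCT from base 39 by AAG with 3 reads, a replacement of AGGTCTCA from base 43 by T with 2, the deletion of G from base 44 with 2, and alleles with 1 read. The 6 other leading alleles of the Sa2 Cas9-positive library had 0 reads here, except 1 read of the deletion of TC. This library also had more substitutions than the others, in 21.7% of listed reads without an indel against 14.7% to 15.7%, and their part in the result was not tested. The deletion of CAGGTCT is 7 mutations long, so that no listed read of it carries a substitution. In the libraries with 4 to 18 indel reads, no allele had more than 3 reads, and the named alleles had 1 to 5 reads in all.

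These sets were compared by size, by seed and by microhomology. Between the fractions with guide Sa2, 7 of 9 size classes differed (77.8%; Fisher's exact test, adjusted p under 0.05), and the class of 2 bases differed by -79.0 points, lower in the Cas9-positive library. Against the Sa4 Cas9-negative library, 8 of 9 differed (88.9%), and the class of 7 bases differed by -70.2 points. The pair of Cas9-negative libraries differed in 3 of 5 classes (60%). The classes of a library are parts of 1 total, so a library with nearly all reads in 1 class is low in the others. These counts of classes thus largely restate the leading allele of each Cas9-negative library and are not independent differences. The seed was changed in 99.1% of indel reads in the Sa2 Cas9-negative library (98.6 to 99.5%) and in 1.97% in that with guide Sa4 (0.905 to 4.22%). The Sa2 Cas9-positive library differed by -18.7 points from the former (interval -19.1 to -18.0 points, Fisher's exact adjusted p 7.85e-143) and by 78.5 points from the latter (76.2 to 79.6 points, adjusted p 1.23e-199). Both differences turn on how a seed change is defined, since the alleles that keep the seed can be written as losing seed bases. Counting a deleted seed base in rightmost form gave 0.226 points for the first (Fisher's exact adjusted p 0.121). For the second it gave 2.91 points (Fisher's exact adjusted p 1.11e-06).

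**Figure D4:**
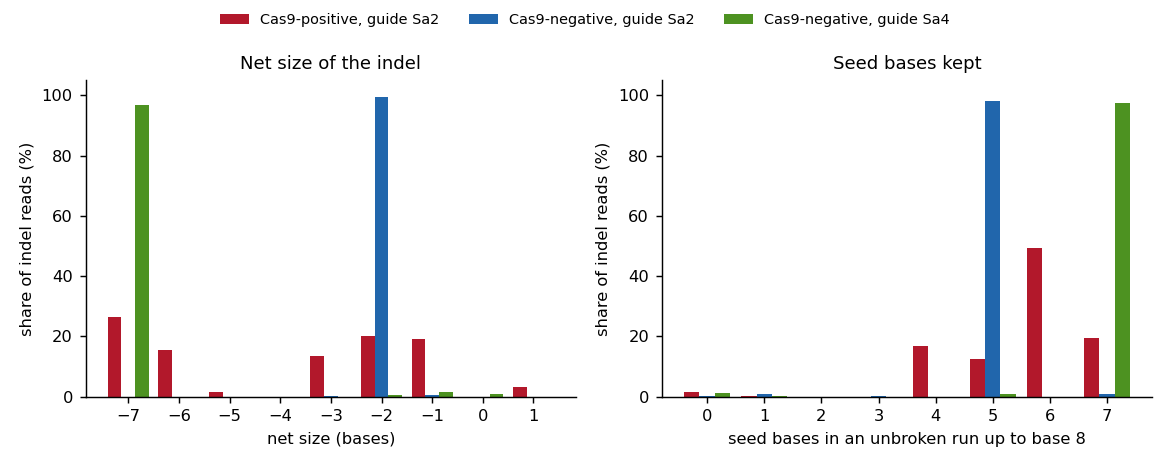
Share of indel reads (%, vertical axes) by net size in bases (left, negative values are losses) and by the number of seed bases left in an unbroken run up to base 8 (right), for the 3 libraries with over 100 indel reads. The Cas9-negative libraries peak at a loss of 2 bases (99.2%, guide Sa2) and of 7 bases (96.7%, guide Sa4), and the Sa2 Cas9-positive library spreads over losses of 1 to 7 bases.

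Microhomology of at least 2 bases was found in 98.5% of single-deletion reads in the Sa2 Cas9-negative library (97.9 to 99.0%) and in 98.0% in that with guide Sa4 (95.6 to 99.1%), each almost wholly from its 1 leading allele. Every possible deletion of 2 bases at the cut has it, so deletion size sets the share with guide Sa2. The differences below therefore restate which alleles lead and are not a separate result on microhomology. Against these, the 37.7% of the Sa2 Cas9-positive library differed by -60.8 points (interval -61.5 to -60.0 points, Fisher's exact adjusted p 1e-300) and -60.2 points (-61.4 to -57.9 points, adjusted p 1.70e-111). The Cas9-negative libraries did not differ detectably from each other (0.567 points, interval -0.714 to 2.94 points, adjusted p 0.445). Reads that share 1 allele may stem from few nuclei and few molecules, so that these p-values speak of reads and not of independent edits.

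Substitutions were counted in listed reads without an indel. They were present in 14.7% to 15.7% of such reads in 7 libraries and in 21.7% in the Sa4 Cas9-negative library. A substitution inside the seed was present in 1.95% to 2.36% in the same 7 libraries, the lowest being the Sa2 Cas9-positive library (1.95%; 1.52 to 2.49%), and in 3.08% (2.97 to 3.20%) in the Sa4 Cas9-negative library. In every library the base with most substitutions was base 56, mature base 9, just behind the seed. There A56C, with positions counted on the hairpin, was found in 1.34% to 1.69% of reads in all 8 libraries, with and without a guide.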

How the data were processed

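Genomic DNA of sorted nuclei was amplified with a QIAseq amplicon kit, per the labels' protocols; the submitters' processing notes name bcl2fastq and cutadapt. An aligner, its version and a genome build are not given in the sources used here. The deposited values are read counts, per the file headers: a tally of reads for each number of mutations and a count for each mutated sequence, in blocks by amplicon and direction. Counts were used as deposited, with both directions summed. Of the locus's listed sequences 6 (6 reads) could not be placed and counted as reads without an indel. In the tests over all amplicons 13 blocks with over 90% of reads beyond the limit were left out.

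The scripts ran in Python 3.11.15 with numpy 2.4.6 and scipy 1.17.1. The parser and the tests were checked on simulated data. Fisher's exact tests were two-sided with Benjamini-Hochberg adjustment over all amplicons (44, 59 and 45 tests), over 3 library pairs for the seed and for microhomology, and over 23 size classes. Interval bounds for differences are Newcombe's. P-values under 1e-300 were written as 1e-300. Named alleles are those with at least 1% of indel reads in the Sa2 Cas9-positive library and the 5 with most reads in each other library with at least 100. The locus, lists and tests were chosen with earlier results of these data known. Alternatives covered the window, indel size, read minimum, direction, substitutions, reads beyond the limit and the placement of deletions.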

Additional observations from a re-analysis of the deposited data

Results flagged for a closer look

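With guide Sa4 the difference from no guide in the indel share at miR-128-2 went opposite ways in the sort fractions: 0.311 points in the Cas9-negative libraries and -0.0108 points in the Cas9-positive ones, the latter with a Fisher's exact adjusted p of 0.352. With reads beyond the mutation limit counted as indels, both were positive, at 1.94 and 0.105 points. With 1 library per group, the difference between these differences was not tested. The Cas9-negative excess was 288 reads of the deletion of CAGGTCT among 305 indel reads.

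Reads with over 7 mutations, which the authors did not list and the comparisons use only in denominators, made up 10.6% of miR-128-2 reads in the Sa2 Cas9-positive library, against 3.71% to 5.39% in the other 7 libraries. No allele could be read from these 6707 reads.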

How the results depend on the processing

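No paired analysis was possible because each group has 1 library, and the groups share only 1 replicate number, given in accession order. For 38 results 272 values were recomputed. The difference of the Sa2 and no-guide Cas9-positive libraries ran from 65.2 points (indels of at least 2 bp) to 94.3 points (reads beyond the limit left out). With reads beyond the limit counted as indels, guide Sa1 was 0.174 points above no guide among Cas9-negative libraries (Fisher's exact test, adjusted p 0.0241). In that setting guide Sa4 was 1.94 points above no guide among Cas9-negative libraries, and its Cas9-positive library differed by -1.82 points from its Cas9-negative one.

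The share of indel reads with the seed changed in the Sa2 Cas9-positive library was 79.9% without entries that carry a substitution, 80.1% in reverse reads and 99.6% with a deleted seed base counted in rightmost form. In the Sa2 Cas9-negative library it was 90.9% with indels anywhere in the amplicon, 100% with entries of at least 10 reads, 99.6% without substitutions and 99.6% in forward reads. In that with guide Sa4 it was 0% with entries of at least 10 reads, 4.26% in forward reads, 0% in reverse reads and 96.7% in rightmost form. The difference between the fractions with guide Sa2 reversed only in rightmost form (0.226 points, adjusted p 0.121), by the construction of that count.

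Microhomology of at least 3 bases was found in 0% of reads in all 3 libraries, so both differences from the Cas9-positive library became 0 points (adjusted p 1). With at least 1 base the shares were 99.6% (Cas9-negative, guide Sa2) and 99.3% (Cas9-negative, guide Sa4). With indels anywhere they were 96.8% and 92.5%, a difference of 4.23 points (adjusted p 0.000247), and 5 size classes then differed between these libraries. With entries of at least 10 reads the shares were 100% and 100%, and 38.3% in the Sa2 Cas9-positive library, which had 39.0% without entries that carry a substitution; the Sa2 Cas9-negative library then had 99.6%. Where no construction is named, the cause was not tested. Of the recomputed shares of single alleles, 38 moved beyond their interval, 40 did not and 0 reversed. Deletions over 7 bases cannot be seen at this limit.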

Other observations

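Of single substitutions, C51T stood apart in 1 library. It changes mature base 4, inside the seed, and was chosen after its values were seen. In the Cas9-positive library with no guide it was present in 306 of 100361 listed reads without an indel (0.305%; 95% Wilson interval 0.273 to 0.341%). The other 7 libraries had 0.0265% to 0.0628%. A56C, the most frequent substitution, was at 1.41% in the same library, within the range of the others.

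The deletion of GT from base 53 is 1 of the alleles seen in the Sa2 Cas9-negative library (15 reads) and was read 29 times in the Cas9-positive library of that guide. All 29, or 0.054% of that library's indel reads, carried a further substitution. The allele is not among the 12 most frequent there. Of those 12, the alleles of 6 mutations or fewer carried a further substitution in 14.0% to 20.2% of reads.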
